A study of Mus musculus with 48 samples.

Results

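The 7 genes described here move bile acids through the enterocyte of the small intestine or pass on their signal. They were taken by symbol from the deposited gene table, 7 of 51106 genes with a symbol, without regard to their values. Slc10a2 (ENSMUSG00000023073, chr8:5083219-5105351, minus strand) and Fabp6 (ENSMUSG00000020405, chr11:43596049-43601540, minus strand) serve uptake and passage through the cell. Slc51a (ENSMUSG00000035699, chr16:32474504-32487879, minus strand) and Slc51b (ENSMUSG00000053862, chr9:65412714-65422955, minus strand) serve export. Fgf15 (ENSMUSG00000031073, chr7:144896531-144900953, plus strand), Nr1h4 (ENSMUSG00000047638, chr10:89454234-89533585, minus strand) and Nr0b2 (ENSMUSG00000037583, chr4:133553376-133556536, plus strand) serve signalling. Coordinates are those of GENCODE M21 on GRCm38, and each value covers a whole gene.

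Total RNA was sequenced from untreated wild-type C57Bl/6J mice of both sexes at postnatal days 0, 2, 4, 6 and 8 and weeks 2, 3 and 4. At each age the first 2 cm of small intestine past the stomach (duodenum) and the last 2 cm ahead of the caecum (ileum) were taken, with 3 samples for each region and age. The labels call the housing germ-free and elsewhere speak of limiting differences in exposure to microbes, and which applies is not settled by them. They give nursing by the dam to 21 days of age and standard chow after that, so the week 3 samples stand at weaning. The labels do not say whether a duodenum and an ileum of the same number came from 1 animal, and litters were spread over ages, so p-values measure the spread between these samples.

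The 46 libraries used held 16824021 to 65042327 counts each. The summed level of 3 proximal markers (Pdx1, Gata4, Onecut2) was 250.6 to 506.9 CPM (counts scaled to TMM effective library size) in the duodenum and 26.0 to 166 CPM in the ileum. The day 6 samples numbered 3 went against their labels: that sum was 66.1 CPM in the one labelled duodenum and 482.6 CPM in the one labelled ileum, and both were left out, so day 6 has 2 samples a region. The tissue is labelled as whole thickness, yet 6 smooth muscle markers summed to 4.68 to 44.5 CPM in the duodenum and 12.9 to 195.8 CPM in the ileum, beside 11750 to 68187 CPM and 14038 to 33255 CPM for 9 enterocyte markers. Ileum sample 1 of week 4 stood apart from samples 2 and 3 of its group. It held 0.0587 CPM against 17.0 and 14.9 for 4 distal Hox genes and 104.8 against 26.0 and 39.2 CPM for the proximal markers. The Hox sum overlapped between regions, at 0.362 to 3.29 CPM in the duodenum (median 0.943) and a median of 1.43 CPM in the ileum. All 3 ileum week 4 samples were high in 6 colon and caecum markers, at 194.8, 361 and 128 CPM. The other ileum samples used held 24.9 to 74.4 CPM of them, and the duodenum 74.9 to 251 CPM. Week 4 samples 2 and 3 also held the highest Hox sums and the lowest ileal enterocyte sums, 15182 and 14038 CPM. The part of these differences in the week 4 levels was not tested. For the 7 genes, week 4 changes or calls and the week 4 region differences named are given with and without ileum week 4 sample 1. So are the exporter ratio and the week 4 values or calls of the other genes named for week 4. Differences averaged over ages and correlations are given with it. Duodenum sample 3 of day 4 held 41.7 CPM of smooth muscle markers against 5.54 and 5.43 CPM in the other two. Ileum sample 2 of day 0 held 165.6 CPM of the proximal markers against 35.1 and 81.5 CPM in samples 1 and 3. It held 15.3 CPM of 7 stomach markers against 0.185 and 0.452 CPM. Duodenum sample 1 of day 2 held 605.8 CPM of 10 pancreatic acinar cell markers against 38.8 and 22.7 CPM in samples 2 and 3. The stomach markers reached 46.7 CPM in duodenum sample 2 of day 4 and 79.2 CPM in duodenum sample 2 of day 6. All of these samples were kept in the comparisons.

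Bile acids are made in the liver, act as detergents in the gut and are reclaimed in the last part of the small intestine. Slc10a2 encodes the apical sodium-dependent bile acid transporter (ASBT), which takes bile acids in from the lumen, and Fabp6 the ileal bile acid-binding protein that holds them in the cytosol. Slc51a and Slc51b encode the alpha and beta subunits of the OSTα-OSTβ exporter, which needs both to work. Nr1h4 encodes FXR, the nuclear receptor that bile acids activate. Its targets include Fabp6, both exporter subunits, Fgf15, a hormone that reaches the liver and lowers bile acid synthesis, and Nr0b2 (SHP), a receptor-like repressor without a DNA-binding domain.

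Week 3 against week 2 was the step at which the ileum changed most for these genes. Of the 7 genes, 7 passed the test there: Slc10a2, Fabp6, Slc51a and Slc51b rose, while Fgf15, Nr1h4 and Nr0b2 fell. Among all 21986 genes tested, 26.8% passed at that step, 12.9% upward and 13.9% downward. In the duodenum 4 of the 7 passed at the same step (18.3% of all genes, 7.7% upward and 10.6% downward): Slc10a2 rose, and Fgf15, Nr1h4 and Nr0b2 fell. The median log2 change of the 7 genes in the ileum was 1.24 against 0.03 over all genes, and 0.20 against 0.03 in the duodenum. Each of the 7 ileal calls held under every processing alternative tried. In bulk tissue, fewer cells of a type and less RNA per cell cannot be told apart, which holds for every level below.

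**Figure D1:**
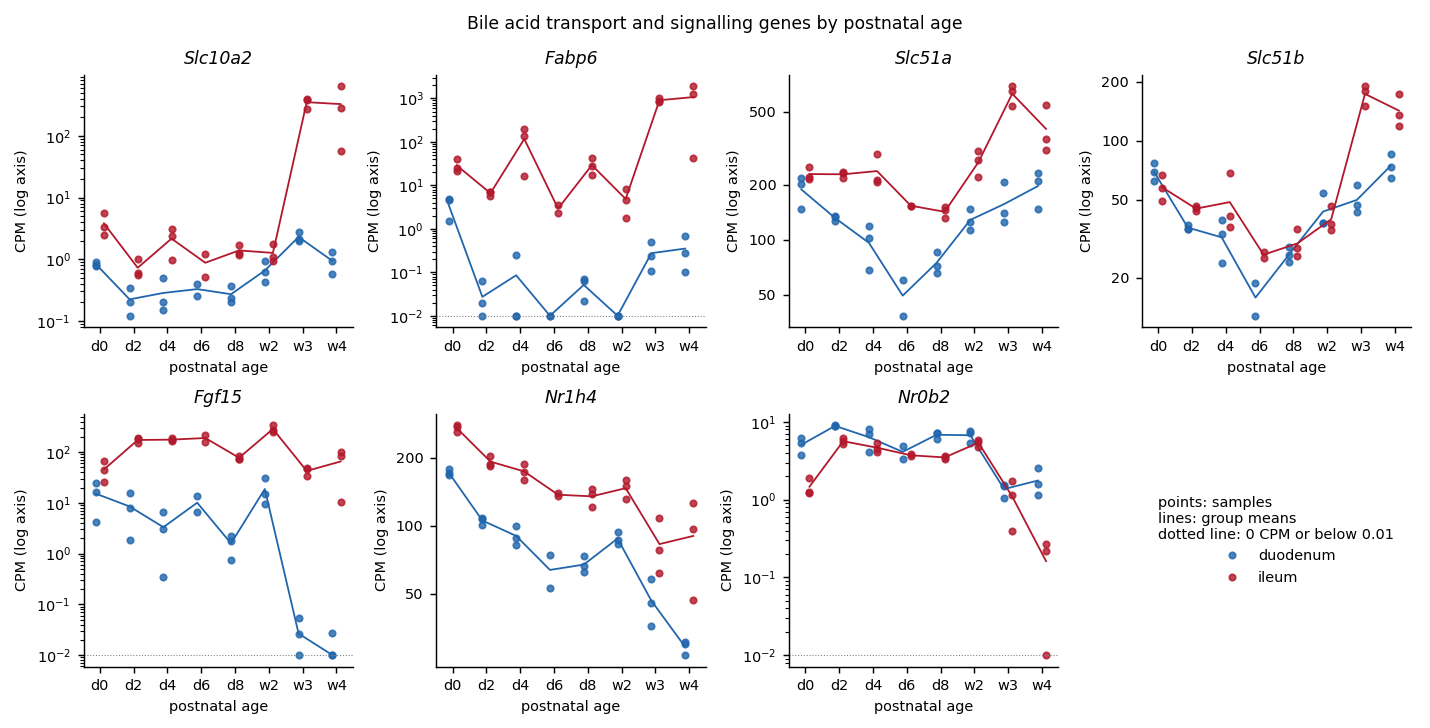
CPM of each gene (log axis) against postnatal age, with duodenum samples in blue, ileum samples in red and lines through the group means. Points on the dotted line are at 0 or under 0.01 CPM. Slc10a2, Fabp6, Slc51a and Slc51b step up in the ileum between week 2 and week 3, Fgf15 steps down in both regions, and Fabp6 in the duodenum stays under 0.7 CPM after day 0.

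The stretch just ahead of the gene start is shown for Fabp6, Slc51a and Slc51b, chosen because they rose in the ileum at week 3 and hold a match to a motif searched, from the RefSeq promoter table (GRCm38.p6, which has entries for 6 of the 7 genes). Only bases ahead of both the RefSeq and the GENCODE start are printed, 5′ to 3′ on the gene's strand: chr11:43601563-43601812 for Fabp6, chr16:32487880-32488129 for Slc51a and chr9:65422956-65423023 for Slc51b, all minus strand. Capitals mark matches to the inverted repeat IR-1, the site type FXR binds with its partner RXR, in Fabp6 and to a single nuclear receptor element (1 arm of that repeat) in Slc51a and Slc51b.
Fabp6: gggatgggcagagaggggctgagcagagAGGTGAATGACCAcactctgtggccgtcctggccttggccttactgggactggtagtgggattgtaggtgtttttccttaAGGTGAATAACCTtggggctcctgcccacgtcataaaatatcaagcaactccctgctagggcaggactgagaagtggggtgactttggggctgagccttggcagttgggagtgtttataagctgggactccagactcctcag
Slc51a: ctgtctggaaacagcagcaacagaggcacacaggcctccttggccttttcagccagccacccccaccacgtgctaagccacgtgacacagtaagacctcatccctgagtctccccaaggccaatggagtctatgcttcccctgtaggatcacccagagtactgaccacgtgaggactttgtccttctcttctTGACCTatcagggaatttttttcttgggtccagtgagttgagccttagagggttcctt
Slc51b: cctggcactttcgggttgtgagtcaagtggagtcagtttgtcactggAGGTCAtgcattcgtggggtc
Both strands of the 250 bases ahead of the RefSeq start were searched. IR-1 was AGGTCANTGACCT with at most 2 mismatches, held by 0.959% of 32851 promoters. Fabp6 has a pair of such matches, at bases -222 to -210 and -142 to -130 from the RefSeq start, each with 2 mismatches. The single element AGGTCA, which is also either arm of IR-1, was held without mismatch by 4607 of 32851 promoters, among them Slc51a (-58 to -53), Slc51b (-203 to -198) and Nr1h4 (-214 to -209). Slc10a2, which also rose, and Nr0b2 held no match to either motif in this window. A match is a run of letters and was not tested for binding.

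Slc10a2, the apical uptake transporter, was scarce in the ileum up to week 2 and abundant from week 3. The 3 ileal samples of week 2 read 0.951, 1.76 and 1.08 CPM, and those of week 3 read 392, 389 and 276 CPM. The 3 week 3 samples lie far above every earlier ileal sample, the highest of which was 5.65 CPM at day 0. The mean rose 278.8-fold, from 1.26 ± 0.435 to 352 ± 65.8 CPM (SD, n = 3 each), a fitted log2 change of 8.10 ± 0.61 (SE, edgeR quasi-likelihood test, Benjamini-Hochberg adjusted p = 1.48e-12). At week 4 the samples read 57.6, 644 and 282 CPM, so they span the week 3 range and only sample 1 lies below it. Week 4 against week 3 did not pass (log2 change -0.10 ± 0.43, adjusted p = 0.915, and 0.37 with adjusted p = 0.499 without sample 1).

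In the duodenum the transcript was scarce at every age and rose a little at the same step. It went from 0.425, 0.616 and 0.920 CPM at week 2 to 2.76, 2.13 and 2.00 CPM at week 3, with no overlap. The fitted log2 change was 1.76 ± 0.57 (edgeR adjusted p = 0.0276), and it did not pass without duodenum week 2 sample 1 (adjusted p = 0.113), week 2 sample 2 (0.0822) or week 3 sample 1 (0.0939). The ileal change exceeded the duodenal one by 6.33 ± 0.81 on the log2 scale (adjusted p = 2.8e-05 for the difference). Newborn ileum held more Slc10a2 than ileum of day 2. The day 0 samples read 5.65, 3.34 and 2.45 CPM and the day 2 samples 0.602, 1.02 and 0.554 CPM. The log2 change was -2.40 ± 0.59 (edgeR adjusted p = 0.0114). That call was lost without ileum day 0 sample 1 (adjusted p = 0.0603), day 2 sample 1 (0.0686) or day 2 sample 3 (0.0793). The day 4 samples, at 0.961, 2.41 and 3.09 CPM, overlapped those of day 0.

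Fabp6, the cytosolic bile acid carrier, showed the same step on an uneven early course. Week 2 ileum gave 1.77, 8.25 and 4.58 CPM, while week 3 gave 825, 1047 and 865 CPM, again without overlap. The fitted log2 change was 7.54 ± 1.01 (edgeR adjusted p = 9.49e-07), and the mean rose 187.6-fold to 912 ± 118 CPM (SD, n = 3). Week 4 read 41.7, 1256 and 1936 CPM, with sample 1 below both the other two and every week 3 sample. Without it the week 4 mean was 1596 ± 481 CPM (SD, n = 2), and with it 1078 ± 960 CPM.

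During nursing the ileal Fabp6 level went up and down between ages. It stood at 21.9, 39.9 and 24.9 CPM at day 0, at 5.82 to 7.06 CPM at day 2, and at 16.03, 201 and 135 CPM at day 4. The 2 samples of day 6 read 3.61 and 2.27 CPM, day 8 rose to between 17.5 and 42.3 CPM, and week 2 fell to at most 8.25 CPM. The day 4 samples alone span 16.03 to 201 CPM. Day 6 against day 4 was the early step that passed (log2 change -5.33 ± 1.12, adjusted p = 0.0178, with 1.34% of all genes), and it did not pass without ileum day 4 sample 2 (adjusted p = 0.0623), day 6 sample 1 (0.235) or day 6 sample 2 (0.319).

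The duodenum held Fabp6 at birth and almost none later. Day 0 samples read 4.74, 4.65 and 1.55 CPM. At day 2 the 3 libraries held 4 counts together against 358 at day 0, a ratio of 105.7 with a 95% exact interval of 40.9 to 390.0. No count was seen at day 6 or week 2, and 29 and 33 counts in all were seen at weeks 3 and 4. Such ratios and intervals are on summed counts per effective library size and cover counting error only. Because the duodenum stood at 0 at week 2, the difference between regions in the week 3 step has no usable fitted size (adjusted p = 1).

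Slc51a and Slc51b, the exporter subunits, were present at every age and rose less than the uptake genes. Slc51a in the ileum went from 220, 273 and 304 CPM (week 2) to 692, 653 and 538 CPM (week 3), with no overlap and a 2.36-fold higher mean. The log2 change was 1.24 ± 0.22 (edgeR adjusted p = 1.92e-05). Slc51b went from 35.3, 37.8 and 46.5 CPM to 191, 179 and 151 CPM, with a 4.36-fold higher mean and a log2 change of 2.12 ± 0.21 (adjusted p = 1.47e-10). In the duodenum neither passed at that step (log2 0.29 ± 0.21 and 0.20 ± 0.20, adjusted p = 0.393 and 0.545). For Slc51b the ileal change exceeded the duodenal one by 1.92 ± 0.28 (adjusted p = 8.59e-05), and for Slc51a the difference of 0.95 ± 0.30 did not pass (adjusted p = 0.121).

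Both subunits ran through a trough in the first days. Slc51a in the duodenum fell from 217, 202 and 146 CPM at day 0 to 38.5 and 60.6 CPM at day 6 and was back at 148 to 232 CPM by week 4. Slc51b in the duodenum followed, from 62.8 to 76.9 CPM at day 0 to 12.8 and 18.9 CPM at day 6 and 65.0 to 85.6 CPM at week 4. In the ileum Slc51b was lowest at day 6, with 27.1 and 25.4 CPM, and Slc51a at day 8, with 131 to 150 CPM. The sum of the 9 enterocyte markers moved too. In the duodenum it was 32488 to 39872 CPM at day 0 and 41225 to 47772 CPM at day 2. Duodenal Slc51b read 35.4 to 37.4 CPM at day 2. The duodenal sum was 11750 and 18527 CPM at day 6, 35114 to 68187 CPM at week 2 and 24163 to 33594 CPM at week 4. In the ileum it was 23085 to 30299 CPM at day 0 and 19380 and 21682 CPM at day 6. The part of these markers in the trough was not tested. After week 3 ileal Slc51a read 311, 545 and 355 CPM (log2 change -0.64 ± 0.21, adjusted p = 0.0353). That call was lost without ileum week 4 sample 1 (adjusted p = 0.146), week 4 sample 3 (0.097), week 3 sample 1 (0.142) or week 3 sample 2 (0.0913).

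On the scale of CPM per kb of the longest coding transcript, 2618 bases for Slc51a and 709 for Slc51b, the balance of the subunit transcripts in the ileum moved. The Slc51a to Slc51b ratio was 1.09 ± 0.250 at day 0 (SD, n = 3), 1.81 ± 0.133 at week 2, 0.978 ± 0.0132 at week 3 and 0.755 ± 0.0836 at week 4. The 3 samples of week 2 (1.69 to 1.95) lie above those of week 3 (0.963 to 0.987), and these above those of week 4 (0.706 to 0.851). Without ileum week 4 sample 1, at 0.707, the week 4 mean was 0.779 ± 0.103 (SD, n = 2). In the duodenum the mean ratio stayed between 0.709 and 0.987 at the 8 ages. With 3 samples against 3 no exact permutation test can go below 0.10, and none was run. Slc51a shares 567 bases with Pcyt1a and Slc51b shares 2140 with Rasl12 on the other strand. Whether the counting used strand is not given in the sources used here. Rasl12 stood at 3.02 to 17.1 CPM in the ileum, below Slc51b in every group mean, while Pcyt1a stood at 163.8 to 428.8 CPM, so reads of the shared stretch of Slc51a cannot be told apart from it.

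**Figure D2:**
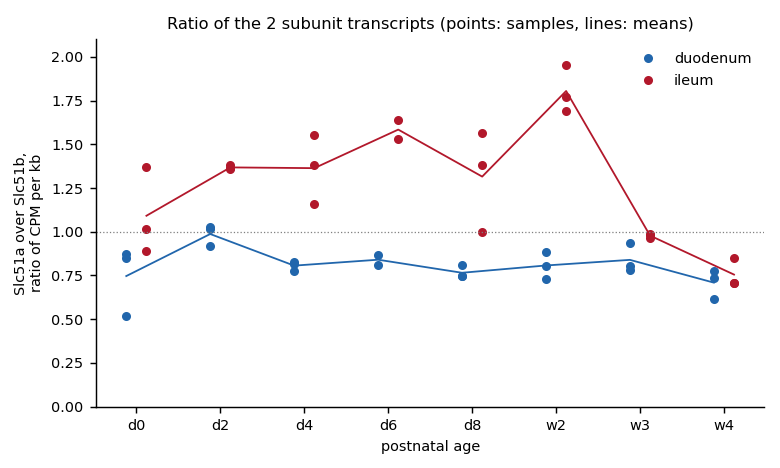
Ratio of Slc51a to Slc51b (CPM per kb) in each sample against postnatal age, duodenum in blue and ileum in red, with lines through the means and a dotted line at 1. The ileal ratio is highest at week 2, with a mean of 1.81, and lowest at week 4, with a mean of 0.755, next to the duodenal mean of 0.709.

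Fgf15, the hormone of the axis, went the other way from the transporters. The ileum held 247, 337 and 272 CPM at 2 weeks, then 33.4, 47.6 and 46.5 CPM at 3 weeks, without overlap. The mean was 6.71-fold lower and the log2 change -2.75 ± 0.71 (edgeR adjusted p = 0.00329). Week 4 read 10.4, 100 and 84.9 CPM, with sample 1 below and the other two above all week 3 samples, and week 4 against week 3 did not pass (0.62 ± 0.67, adjusted p = 0.603, and 1.11 with adjusted p = 0.268 without sample 1). The week 3 mean of Fgf15, 42.5 CPM, was the lowest of the 8 ileal means, next to 45.3 CPM at day 0, whose samples it overlaps.

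Earlier, ileal Fgf15 had risen from birth. It read 44.8, 25.5 and 65.7 CPM at day 0, and 153 to 220 CPM in the 8 samples of days 2, 4 and 6. Day 8 was lower, at 72.5, 84.9 and 74.5 CPM, and did not overlap with any of those 8. Week 2 against day 0 gave a log2 change of 2.65 ± 0.70 (adjusted p = 0.00991), which did not pass without ileum day 0 sample 2 (2.37, adjusted p = 0.0657). None of the single steps between day 0 and week 2 passed for Fgf15 in the ileum.

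In the duodenum Fgf15 was variable up to week 2 and almost gone from week 3. Week 2 samples read 9.45, 31.4 and 15.3 CPM. At week 3 the 3 libraries held 3, 0 and 1 counts, and at week 4 they held 0, 1 and 0. Summed over libraries, week 2 exceeded week 3 by a ratio of 556.2 (95% exact interval 216.8 to 2043) and week 4 by 1849 (331.5 to 73090). The fit calls the duodenal fall (adjusted p = 1.81e-06) and puts it below the ileal one by 6.28 ± 1.59 on the log2 scale (adjusted p = 0.0375), a size that depends on how counts near 0 are fitted. The call was lost under 13 of 19 alternatives, with adjusted p up to 0.177. Of the 12 samples of weeks 2 and 3, it held only without duodenum week 2 sample 1 or ileum week 3 sample 1. Fgf15 shares 931 bases with Gm26793 and 1641 with Gm39119, antisense transcripts that stood at no more than 5.68 and 6.70 CPM in any ileum sample.

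Nr1h4, the bile acid receptor, was lower at 2 weeks than at birth in both regions and lower again at 3 weeks. The ileum held 273, 260 and 278 CPM at day 0, then 131, 149 and 159 CPM at 2 weeks and 109, 78.3 and 62.1 CPM at 3 weeks. The duodenum went from 168, 178 and 171 CPM to 93.8, 82.9 and 86.8 CPM and 58.4, 45.7 and 35.9 CPM at the same ages, and to 30.5, 30.1 and 26.8 CPM at week 4. None of these groups overlap within a region. The course was not a steady fall. In the duodenum the 3 day 8 samples (62.5 to 73.4 CPM) lay below those of week 2, a step that did not pass (log2 0.38 ± 0.20, edgeR adjusted p = 0.215). The ileum did not pass from week 3 to week 4 (0.12 ± 0.20, adjusted p = 0.759, and 0.41 with adjusted p = 0.108 without ileum week 4 sample 1). The week 3 step was -0.82 ± 0.20 in the ileum and -0.91 ± 0.20 in the duodenum on the log2 scale (edgeR adjusted p = 0.00182 and 0.000924), and the difference of 0.09 ± 0.28 did not pass (adjusted p = 0.996). The receptor transcript thus fell at the step at which the 4 transport transcripts rose in the ileum.

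Nr0b2, the repressor, was a scarce transcript. In the ileum it read 1.22, 1.92 and 1.26 CPM at day 0 and 5.67, 5.15 and 6.14 CPM at day 2 (log2 change 1.96 ± 0.34, adjusted p = 0.000267). At 2 weeks it still read 4.75, 5.58 and 5.88 CPM. The 3-week samples read 0.400, 1.16 and 1.74 CPM, and the 4-week samples 0, 0.217 and 0.267 CPM. Each of those later groups lies below the one before it. The duodenum fell from 7.22, 5.44 and 7.58 CPM to 1.06, 1.53 and 1.52 CPM at the week 3 step. Both regions gave the same log2 change, -2.31 ± 0.35 in the ileum and -2.31 ± 0.34 in the duodenum (adjusted p = 2.26e-06 and 1.68e-06). At week 4 the ileal libraries held 0, 7 and 4 counts, so the further fall of 2.66 ± 0.49 (adjusted p = 0.000106, and -2.20 with adjusted p = 0.000947 without sample 1) rests on few counts.

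**Figure D3:**
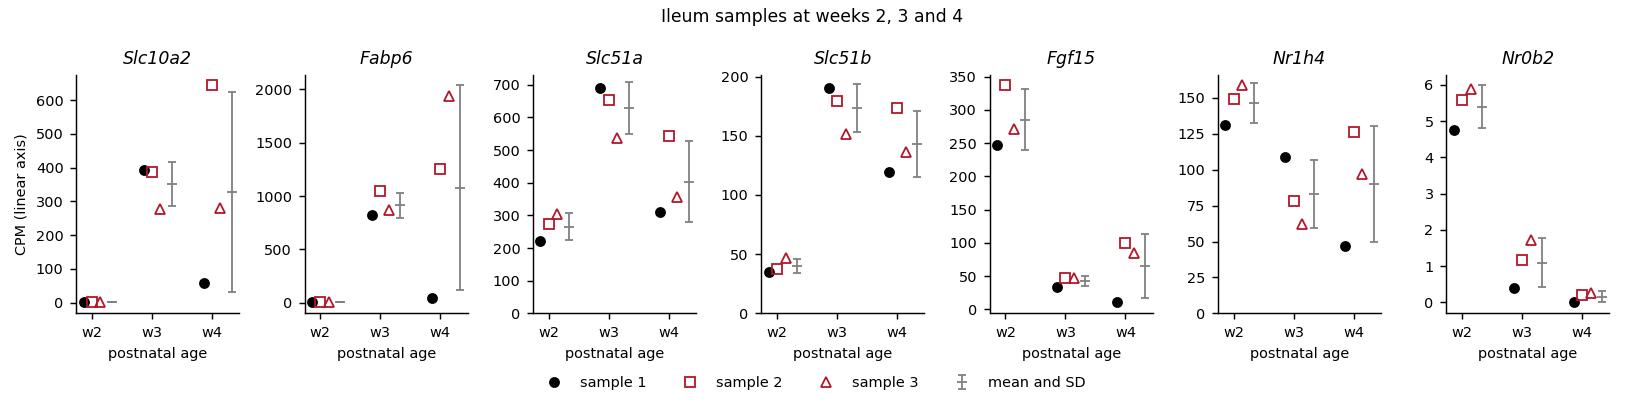
CPM (linear axes) of each gene in the 3 ileum samples of weeks 2, 3 and 4. Black circles are sample 1, red squares and triangles samples 2 and 3, and grey bars the mean and SD. At week 4 sample 1 is the lowest of its group for all 7 genes, with 57.6 CPM of Slc10a2 and 41.7 CPM of Fabp6.

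Averaged over the 8 ages, 7 of the 7 genes differed between regions, as did 62.1% of all genes tested. Of them 6, all but Nr0b2, were higher in the ileum (31.9% of all genes were, and 30.2% were lower). The averaged log2 differences were 3.41 ± 0.23 for Slc10a2, 1.13 ± 0.08 for Slc51a, 0.97 ± 0.07 for Nr1h4 and 0.52 ± 0.07 for Slc51b (edgeR adjusted p at most 1.02e-07). Nr0b2 was higher in the duodenum on this average, by -1.004 ± 0.13 for ileum over duodenum (adjusted p = 1.38e-08). Among single ages it passed only at day 0 (-1.80 ± 0.34), day 8 (-0.97 ± 0.32) and week 4 (-3.37 ± 0.47). The week 4 value rests on ileal libraries with 0, 7 and 4 counts, and was -2.91 without ileum week 4 sample 1. Over the 56 pairs of a gene and an age, 42 passed, against 22.6% of all such tests.

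The region difference was not the same size at each age. At day 0, 4 of the 7 genes passed (6.1% of all genes). Slc51a and Slc51b did not pass at birth (log2 0.28 ± 0.21 and -0.26 ± 0.20, adjusted p = 0.525 and 0.519), and neither did Fgf15 (adjusted p = 0.191). The day 0 call of Slc10a2 was lost without duodenum sample 3 (adjusted p = 0.0777) or ileum sample 1 (0.115), and that of Fabp6 without any 1 of the 6 samples (0.0527 to 0.157). At day 2, 4 passed (8.01%), at day 4, 6 (26.6%), at day 6, 5 (35.3%), and at day 8, 6 (39.6%). The day 2 call of Slc51a was lost without ileum day 2 sample 2 (edgeR adjusted p = 0.054). The day 4 call of Slc51b was lost without duodenum day 4 sample 2 (0.169) or ileum day 4 sample 2 (0.315). The day 6 difference of Slc51b, 0.73 on the log2 scale, ran from 0.30 to 1.04 over the alternatives. At week 2, 4 passed (22.4%), and Slc10a2 and Slc51b were among those that did not (log2 0.92 ± 0.60 and -0.13 ± 0.20, adjusted p = 0.29 and 0.683). At week 3, 6 passed (14.2%), with log2 differences of 7.25 ± 0.58 for Slc10a2, 2.00 ± 0.22 for Slc51a and 1.79 ± 0.20 for Slc51b. At week 4 all 7 passed (28.4%), and they did so too without ileum sample 1.

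Among single genes Nr1h4 passed at each of the 8 ages, with log2 differences from 0.65 at day 0 to 1.63 at week 4. Without ileum week 4 sample 1 the week 4 difference was 1.92. The day 0 call was lost without any 1 of the 6 day 0 samples (adjusted p 0.0678 to 0.132), and the week 3 call without duodenum week 3 sample 3 (0.0525) or ileum week 3 sample 1 (0.0596). Fabp6 and Fgf15 are better read as ratios of summed counts. Fabp6 in the ileum exceeded the duodenum by a ratio of 8.80 (7.87 to 9.85) at day 0, 222.6 (86.4 to 820.1) at day 2 and 3859 (2687 to 5762) at week 3. Where the duodenum held no count, the ileal mean of Fabp6 was set over a floor of 3 counts per duodenal library. It was 38.9-fold that floor at day 6 and 52.0-fold at week 2. The spread of the ileal samples, 2.27 and 3.61 CPM at day 6 and 1.77 to 8.25 CPM at week 2, is not covered. Fgf15 gave 3.75 (3.53 to 3.97) at day 0, 16.1 (15.4 to 16.9) at week 2 and 1294 (504.9 to 4753) at week 3. At day 0 the edgeR test, which uses the spread between samples, did not pass for Fgf15 (adjusted p = 0.191).

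**Figure D4:**
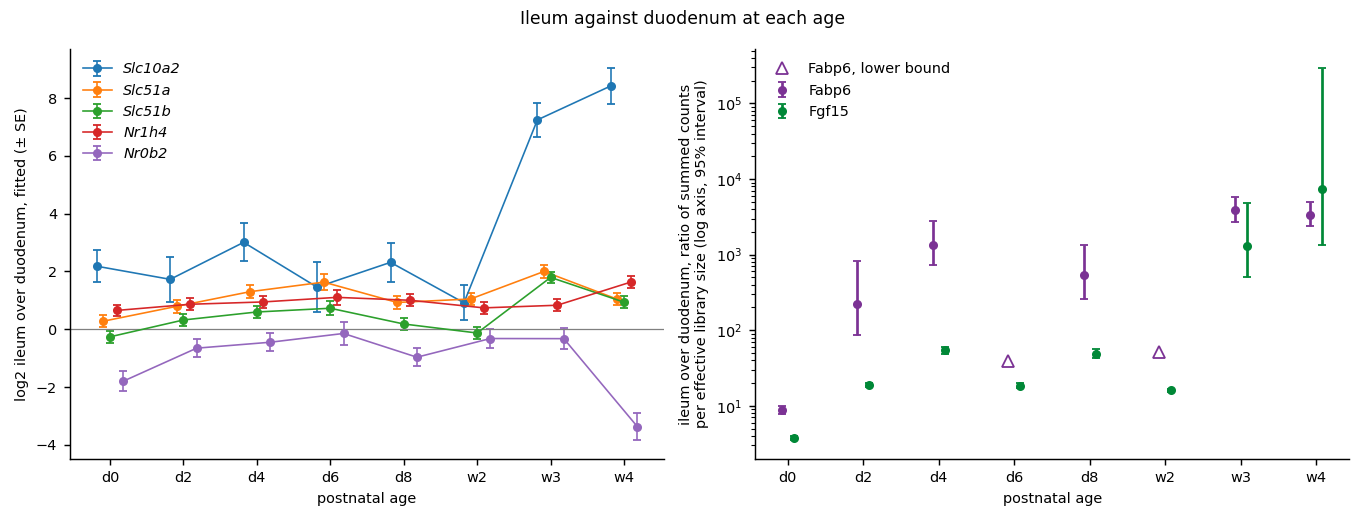
Left, the fitted log2 ileum over duodenum with its SE at each age for 5 genes. Right, the ratio of summed counts for Fabp6 and Fgf15 on a log axis with 95% intervals that cover counting error only. Triangles, marked as lower bounds, are the ileal mean over a floor of 3 counts per duodenal library. Slc10a2 goes from 0.92 at week 2 to 7.25 at week 3 and 8.42 at week 4, while Nr1h4 stays between 0.65 and 1.63. Without ileum week 4 sample 1, not drawn, week 4 is 8.91 for Slc10a2 and 1.92 for Nr1h4.

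Across all ages, each of the 7 genes changed in the ileum (58.7% of all genes did) and in the duodenum (67.4%). The region by age interaction passed for 6 of them (22.4% of all genes), with adjusted p from 5.93e-08 for Slc10a2 to 0.00261 for Slc51a. Nr1h4 did not pass (0.14), but did without ileum week 4 sample 1 (0.00304). The difference between regions in the week 3 step passed for 3 (1.38% of all genes): Slc10a2, Slc51b and Fgf15. Of 49 pairs of a gene and a step between neighbouring ages, 14 passed in the ileum (8.04% of all such tests) and 14 in the duodenum (12.1%). In the ileum 7 of the 14 were at week 3.

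The other ileal steps held few calls. Day 2 against day 0 passed for 2 genes (5.2% of all genes), Slc10a2 and Nr0b2, and day 6 against day 4 for 2, Fabp6 and Slc51b. Week 2 against day 8 passed for Slc51a alone (6.64%), week 4 against week 3 for Slc51a and Nr0b2 (16.1%), and none passed at day 4 against day 2 (0.0318%) or day 8 against day 6 (0.173%). The Slc51b call at day 6 was lost without ileum day 4 sample 2 (adjusted p = 0.403), day 6 sample 1 (0.318) or day 6 sample 2 (0.378). In the duodenum, day 2 against day 0 passed for Fabp6, Slc51b and Nr1h4 (6.8%), day 6 against day 4 for both exporter subunits (5.82%), and week 2 against day 8 for both subunits and Fgf15 (15.7%). Week 4 against week 3 passed there for Slc51b and Nr1h4 (12.7%), and none of the 7 passed at day 4 against day 2 (25.3%) or day 8 against day 6 (0.0728%).

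Many of these step calls rest on single samples. In the duodenum at week 4, Slc51b (0.58, adjusted p = 0.049) was lost without week 3 sample 2 (0.157) or 3 (0.184) or week 4 sample 2 (0.187) or 3 (0.0802), and Nr1h4 without week 3 sample 1 (0.172) or week 4 sample 2 (0.0627) or 3 (0.088). The duodenal Nr1h4 call at day 2 was lost without any 1 of its 6 samples (adjusted p 0.0517 to 0.0856). At day 6 against day 4 in the duodenum, Slc51a was lost without day 4 sample 3 (0.126) or day 6 sample 1 (0.419), and Slc51b without the same samples (0.0709 and 0.303). At week 2 against day 8 there, Slc51a was lost without day 8 sample 2 (0.0644) or week 2 sample 1 (0.0906), and Slc51b without the same samples (0.061 and 0.139). The ileal Slc51a call at that step was lost without day 8 sample 1 (0.112) or week 2 sample 3 (0.0639).

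Set against birth, the 4-week ileum kept the gains of the transporters. Between day 0 and week 4, 6 of the 7 passed in the ileum (41.9% of all genes, 21.5% upward and 20.4% downward). Slc10a2 rose by 6.44 ± 0.56 on the log2 scale, Fabp6 by 5.22 ± 0.90, Slc51b by 1.3005 ± 0.20 and Slc51a by 0.82 ± 0.21 (edgeR adjusted p 1.56e-11 to 0.00201). Nr1h4 fell by 1.58 on the log2 scale and Nr0b2 by 3.09, and Fgf15 did not pass (0.52 ± 0.67, adjusted p = 0.556). All 6 calls held without ileum week 4 sample 1. The rises were then 6.89 for Slc10a2, 5.74 for Fabp6, 1.37 for Slc51b and 0.93 for Slc51a. Nr1h4 then changed by -1.32 and Nr0b2 by -2.65, while Fgf15 changed by 0.98 and did not pass. In the duodenum 4 passed over the same span, all downward (40.5% of all genes passed, 20.1% downward): Fabp6, Fgf15, Nr1h4 and Nr0b2. The Fabp6 call was lost without duodenum week 4 sample 1 (adjusted p = 0.0732) or sample 2 (0.0504). Slc51a and Slc51b ended there near their level at birth (log2 0.06 ± 0.21 and 0.10 ± 0.20).

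Week 2 against day 0, the nursing span, passed for 5 of the 7 in the ileum (12.3% of all genes, 6.43% upward and 5.92% downward) and 3 in the duodenum (23.5%, with 12.1% upward and 11.3% downward), which were Fabp6, Slc51b and Nr1h4, all lower. Of these Slc51b (adjusted p = 0.0112) was lost without duodenum day 0 sample 3 (0.0654) or week 2 sample 2 (0.0707) or 3 (0.0676). In the ileum Fgf15 and Nr0b2 rose, and Slc10a2, Fabp6 and Nr1h4 fell. This count was 2 without ileum day 0 sample 2 and 3 without ileum week 2 sample 1 or sample 3. Nr1h4 fell by 0.88 on the log2 scale (adjusted p = 0.00211) and Nr0b2 rose by 1.89 ± 0.34 (adjusted p = 0.000101). For Slc10a2 (-1.55 ± 0.52, adjusted p = 0.0447) and Fabp6 (-2.56 ± 0.82, adjusted p = 0.0386) the adjusted p reached 0.227 and 0.171 over the alternatives. The Slc10a2 call was lost without ileum day 0 sample 1 or 2 or any week 2 sample, and the Fabp6 call without day 0 sample 2 or 3 or week 2 sample 1 or 3.

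In all, 6 lists hold 50 other genes of bile acid handling, of which 47 had counts enough to be tested. At week 3 against week 2, 15 of the 47 rose and 6 fell in the ileum (12.9% and 13.9% of all genes), and 15 rose and 4 fell in the duodenum (7.7% and 10.6%). Their median log2 change was 0.22 in the ileum and 0.23 in the duodenum, against 0.03 over all genes in each. The lists were chosen with earlier results of these data known.

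Of the 6 detoxification genes, 4 rose in the ileum at that step (12.9% of all genes did) and 6 in the duodenum (7.7%), and none fell. Cyp3a11, which hydroxylates bile acids, had ileal means of 6.48 ± 1.96 CPM at week 2 and 160.8 ± 88.5 CPM at week 3 and duodenal means of 37.7 ± 33.2 and 2011 ± 841 CPM (SD, n = 3 each). Its log2 changes were 4.62 ± 0.78 and 5.74 ± 0.82 (edgeR adjusted p = 2.31e-05 and 2.39e-06). Sult2b1, a sterol sulfotransferase, rose by 4.09 ± 0.24 and 3.95 ± 0.24. Abcb1a, a drug efflux pump of the apical membrane, rose by 2.41 ± 0.25 and 2.77 ± 0.25. Cyp3a13 rose by 2.19 ± 0.23 and 2.99 ± 0.23. For none of these 4 did the regions differ in the size of the step (adjusted p 0.278 to 0.984).

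Among the other transporters, Slco2b1, an organic anion uptake carrier, rose at week 3 by 2.15 ± 0.34 in the ileum and 1.22 ± 0.32 in the duodenum. Abcc3, an exporter of the basolateral membrane, rose by 1.52 ± 0.30 and 0.96 ± 0.29. Abcc2, an apical export pump, fell in the ileum, from 2230 ± 379 to 834 ± 122 CPM (SD, n = 3), by 1.42 on the log2 scale (adjusted p = 0.00084). In the duodenum Abcc2 did not pass (0.65 ± 0.32, adjusted p = 0.173), and the difference of -2.07 ± 0.46 between regions did (adjusted p = 0.011). Abcb11, the bile salt export pump best known from the liver, stood at 56.5 ± 10.8 CPM in the duodenum at day 0 and 5.38 ± 0.926 CPM at week 2. It fell at week 3 in both regions, by 3.52 on the log2 scale in the duodenum and by 2.12 in the ileum. In the duodenum 10 hepatocyte markers summed to 97.0 to 122.7 CPM at day 0 and 137.5 to 234.5 CPM at week 2. At week 3 they summed to 16.4 to 23.4 CPM there. In the ileum their sum went from 82.2 to 105.7 CPM at week 2 to 43.7 to 52.2 CPM at week 3. Their part in the levels of Abcb11 was not tested.

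Genes around Fgf15 also moved. Malrd1, known from the mouse variant that alters Fgf15 output, rose at week 3 by 1.87 ± 0.20 in the ileum and 1.33 ± 0.20 in the duodenum while Fgf15 fell. Klb, the co-receptor through which Fgf15 acts, fell from 6.25 ± 1.18 to 0.584 ± 0.215 CPM in the ileum (log2 change -3.43 ± 0.30) and by 1.75 on the log2 scale in the duodenum, and the regions differed in that step (-1.67 ± 0.40, adjusted p = 0.0231). Its receptor Fgfr4 did not pass at week 3 (log2 -0.10 ± 0.30 and -0.07 ± 0.30).

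Of 9 transcription factors of the enterocyte, 2 rose and 1 fell in the ileum at week 3, beside 12.9% and 13.9% of all genes. Prdm1, which holds the nursing program of the gut epithelium, fell from 150 ± 6.67 to 12.6 ± 0.947 CPM in the ileum and from 94.6 ± 13.4 to 10.6 ± 1.34 CPM in the duodenum (log2 -3.57 ± 0.24 and -3.16 ± 0.23). Hnf4g, named after its values were seen, rose by 1.70 ± 0.24 and 1.27 ± 0.23. Gata4, which is known to keep Slc10a2 low in the proximal gut, was higher in the duodenum at all ages on average (log2 ileum over duodenum -1.46 ± 0.11, adjusted p = 2.48e-13) and did not pass at week 3 in either region. Of 8 other sensors and partner receptors tested, 3 rose and none fell in the ileum (12.9% and 13.9% of all genes), Vdr among them by 1.33 ± 0.17.

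Of 11 synthesis and conjugation genes, 3 rose and 1 fell in the ileum at week 3 (12.9% and 13.9% of all genes). Cyp27a1, which opens the alternative route of synthesis and was named after its values were seen, rose from 5.58 ± 0.803 to 76.5 ± 11.9 CPM in the ileum and from 2.68 ± 0.620 to 59.2 ± 12.02 CPM in the duodenum. Baat, which joins bile acids to taurine or glycine, rose by 2.103 ± 0.53 and 3.88 ± 0.66. Acox2, a peroxisomal side-chain oxidase, rose in the duodenum (1.56 ± 0.30) and did not pass in the ileum (-0.10 ± 0.29), and the regions differed (-1.67 ± 0.42, adjusted p = 0.0318).

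**Figure D5:**
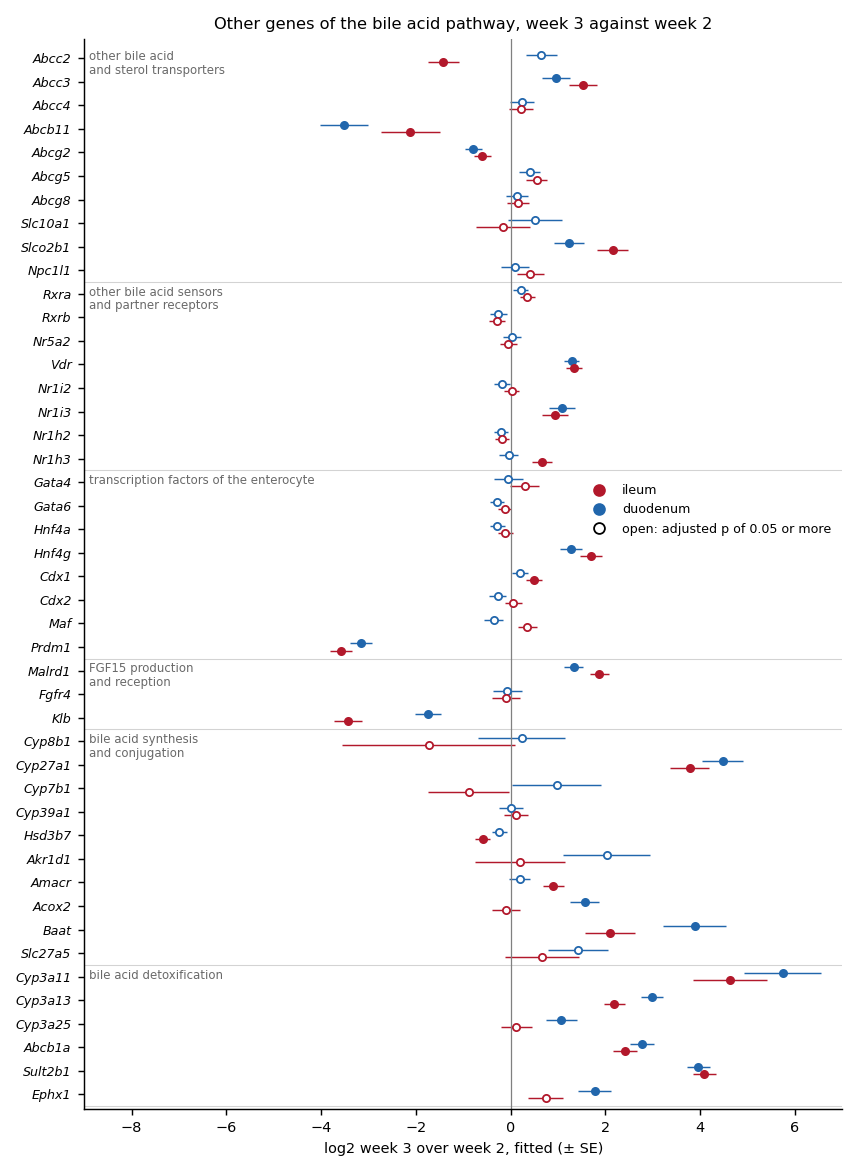
Fitted log2 change from week 2 to week 3 with its SE for 45 other genes of bile acid handling, ileum in red and duodenum in blue, filled where the adjusted p is under 0.05. Cyp7a1, with an SE over 3, is not drawn. Detoxification genes lie to the right of 0 in both regions, and Prdm1, Klb and Abcb11 to the left.

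Within the ileum the group means of the transporters were correlated over the 8 ages, as a description of 8 points that share their libraries. Each transporter had its highest means at weeks 3 and 4. On the log2 CPM scale Pearson's r was 0.958 between Slc10a2 and Slc51b, 0.912 between Slc10a2 and Fabp6 and 0.946 between Slc51a and Slc51b. It was lowest between Slc51a and Fabp6, at 0.771. Before week 3 the courses could part. From day 8 to week 2 Slc51a changed by 0.90 ± 0.21 on the log2 scale, which passed, and Fabp6 by -2.57 ± 0.82, which did not. Fgf15 had r of -0.747 with Slc10a2, -0.765 with Fabp6 and 0.786 with Nr0b2. Nr1h4 had r of -0.747 with Slc10a2.

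The genes whose 16 group means over both regions were most like those of a member were searched among 12356 genes. For Slc10a2 they were Lpcat4 (r = 0.933), Suox (0.931) and Slc52a3 (0.930), and for Fabp6 Syt7 (0.949), Prss23 (0.945) and Tpsg1 (0.919). For Slc51a they were Itgb4 (0.948), Efhd2 (0.945) and Slc22a23 (0.940), and for Slc51b Ezr (0.959), Mcl1 (0.932) and Ppp4r1 (0.931). Fgf15 was closest to A730089K16Rik (0.969), Pyy (0.924) and Sesn3 (0.914). Nr1h4 was closest to Bex4 (0.957), Bend4 (0.9505) and Neu1 (0.949), and Nr0b2 to Gpr157 (0.960), Prss12 (0.949) and Nr2e3 (0.946).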

How the data were processed

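Per the labels' protocols, total RNA of each sample was sequenced on an Illumina NovaSeq. The authors deposited expected counts per gene (tximport estimates already rounded to whole numbers). The authors also deposited normalized values per region (signal: the estimated count over 1 factor per sample, with no day 4 column), used here for symbols only. The submitters' processing notes name STAR 2.6.1d, Salmon 0.14.2, DESeq2 1.30.1 and mm10. The table holds 54532 genes and 48 samples. The 46 samples used were fitted together with edgeR 4.0.16 in R 4.3.3 (TMM scaling, filterByExpr over 16 groups of a region and age, robust quasi-likelihood test), with no covariate. P-values were adjusted by Benjamini-Hochberg over the 21986 genes tested in each of 31 comparisons and called under 0.05. The SE is the log2 change divided by the root of F. CPM are per TMM effective library size. Named genes were the 7 members, list genes from the lists below, and the 3 genes most alike in group mean log2 CPM (prior count 2). List genes are named where called between regions or between day 0 and week 4 in the ileum with a log2 change beyond 1. Hnf4g and Cyp27a1 fall outside that rule and were named after their values were seen. One list gene is counted in its list but not reported here. The members and lists were chosen with earlier results of these data known. Alternatives were RLE factors, no low-count filter, DESeq2 1.42.0, only the groups compared, all 48 samples, no day 4 samples, a replicate block and leaving out each sample. The test was run on simulated data with the same spread for every gene and no samples that stood apart. That check does not cover the uneven groups or the groups near 0 of these genes.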

Additional observations from a re-analysis of the deposited data

Results flagged for a closer look

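The change from week 2 to week 3 differed between ileum and duodenum for 3 genes, by a test of the difference itself. The ileal log2 change minus the duodenal one was 6.33 for Slc10a2, 1.92 for Slc51b and 6.28 for Fgf15. The Fgf15 call was lost under 13 of 19 alternatives (adjusted p up to 0.177), and its size rests on duodenal week 3 libraries that held 4 counts in all. Over all 8 ages the course differed between regions for Slc10a2 (adjusted p = 5.93e-08), Slc51b (2.53e-05), Fgf15 (0.000379), Nr0b2 (0.000985), Fabp6 (0.00108) and Slc51a (0.00261), by edgeR's test of the interaction of region and age. The ileal week 4 group of these tests holds sample 1, and all 6 calls held without it.

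The samples numbered 3 at day 6 entered no comparison. The one labelled duodenum held 99.5 CPM of Fgf15 and 1.98 CPM of Fabp6, above the 6.61 and 13.5 CPM and the 0 counts of the other two duodenum samples. The one labelled ileum held 4.56 CPM of Fgf15 and 0 counts of Fabp6, below the 220 and 159 CPM and the 3.61 and 2.27 CPM of its group.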

How the results depend on the processing

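No called result of the 7 genes changed direction under any alternative. Of 118 calls, 82 were kept throughout and 36 were lost under at least one setting. The count for week 2 against day 0 in the ileum was 3 without the low-count filter, 2 with all 48 samples and 2 to 4 leaving out 1 sample. Leaving out 1 sample gave 6 to 7 genes for the interaction, 2 to 3 for the regional difference at week 3, 39 to 42 region calls, 12 to 15 ileal and 11 to 15 duodenal steps. The replicate block kept every call but 2: Slc51b at week 4 against week 3 in the duodenum (0.59, adjusted p = 0.0562) and Fgf15 for the regional difference at week 3 (6.07, adjusted p = 0.0689). Same-numbered regions of an age correlated at 0.155 on average and at over 0.1 in 16 of 23 pairs, where every pair was needed to take the numbers as pairing samples. Other-numbered pairs averaged -0.079, but each sample was taken as its distance from its group mean. That pulls other-numbered pairs below 0 when same-numbered pairs lie above it, so the value is no separate comparison. With all 48 samples 0 genes of 7762 passed between regions at day 6 (adjusted p = 0.74 for each of the 5 members called there), and the interaction had 947 genes instead of 4930, or 9512 without day 4. The regional difference at week 3 passed for 303 genes and for 113 to 672 under the alternatives, 54.8% of them upward against 40.6% without day 4. Day 8 against day 6 passed for 16 duodenal genes, but for 1878 with only those groups fitted. Day 8 against day 6 in the ileum passed for 38 genes and for 489 without day 4, and day 6 against day 4 for 295 ileal and 1279 duodenal genes but 0 of either with only those groups fitted. The fit of only the compared groups was not run for the regional average and the interaction, which compare all groups. The causes were not tested. Depth limits Fabp6 and Fgf15 in the duodenum and Nr0b2 at week 4, where a few counts set the value.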

Other observations

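Other genes of bile acid handling differed between birth and week 4 in the ileum (edgeR, log2 ± SE). Cyp3a25, a detoxifying cytochrome, had a mean of 0.368 ± 0.228 CPM at day 0 and 147.7 ± 53.0 CPM at week 4 (SD, n = 3 each) and was higher in the duodenum on average over ages (ileum over duodenum -1.71 ± 0.13). Without ileum week 4 sample 1 the Cyp3a25 mean was 117 ± 6.84 CPM (n = 2). Ephx1, an epoxide hydrolase, rose by 3.68 ± 0.40 (3.84 without that sample). Npc1l1, which takes up cholesterol, rose by 1.37 ± 0.30 (0.96 without it), and Abcg5, one part of the sterol exporter, by 1.298 ± 0.23 (0.96 without it). Nr1i3, the xenobiotic sensor CAR, fell by 1.74 in the ileum (by 2.69 without it) and did not pass in the duodenum (0.34 ± 0.28). Its 3 ileal week 4 samples ran from 8.47 to 34.8 CPM. Cyp8b1, Akr1d1 and Slc27a5, liver enzymes of synthesis and conjugation, were called lower at week 4, with and without it, and Cyp7b1 was called higher in the ileum over all ages, but each had ileal means under 1 CPM at day 0 and week 4. Hepatocyte markers summed to 7.04 to 268.5 CPM in the ileum, and their part in these values was not tested.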
